A study of Rattus norvegicus with 6 samples.

Results

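The genes described here encode subunits of the mitochondrial respiratory chain and of ATP synthase. They were taken as every probe set annotated to 1 gene whose current rat symbol begins with Nduf, Uqcr, Cox4, Cox5, Cox6, Cox7, Cox8 or Atp5, or is one of Sdha to Sdhd, Cyc1 or Cycs. This rule found 101 of the 8799 probe sets of the array, standing for 55 of 4736 named genes. A filter on the mean value over all arrays left 85 of these probe sets and 52 genes for testing. Complex I had 24 genes, complex II 1, complex III 4, complex IV 13 and ATP synthase 10. The remaining 3 were an assembly factor (Ndufaf3), a relative of a complex IV subunit (Ndufa4l2) and a pseudogene (Cox6c-ps1). No probe set of 1 gene stood for Cycs, for Sdhb, Sdhc and Sdhd, or for the core subunits Ndufv1 and Uqcrc1. A further 7 probe sets annotated to several genes, a member among them, were not used.

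The tissue was the dorsolateral prostate, the lobe pair often compared with the human peripheral zone, of male ACI rats, an inbred strain, aged 18 months. Per the labels, 3 rats had eaten a diet high in corn oil and 3 a diet low in it over 18 months, and the series text calls the second diet the control. Linoleic acid is the main fatty acid of corn oil. Each rat had its own short-oligonucleotide array of total RNA, so replicates were separate animals, and the labels name no transgene or drug. The free-text description of high corn oil replicate 3 names the low diet. Its title and source name place it in the high group, where it was kept.

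The respiratory chain passes electrons from NADH (at complex I) and succinate (at complex II) through ubiquinone, complex III and cytochrome c to complex IV, which reduces oxygen. Complexes I, III and IV pump protons across the inner mitochondrial membrane, and ATP synthase uses their return to make ATP. All genes described here lie in the nuclear genome, while a few core subunits are encoded by mitochondrial DNA. Rat and human prostate epithelium secretes citrate in large amounts, which draws on the same mitochondria. In whole tissue, fewer cells of a type and less RNA per cell cannot be told apart.

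Deposited values at or below 0 made up 18.6% to 23.1% of an array, but 3.96% to 9.90% among these probe sets, most of which were bright. High corn oil replicate 1 stood apart from high corn oil replicates 2 and 3 in both bacterial spike-in signal and prostate secretory transcripts. Spike-in signal split the arrays into high corn oil replicate 1 with low corn oil replicates 1 and 2, and high corn oil replicates 2 and 3 with low corn oil replicate 3. Probasin (Pbsn) is the secretory protein that marks the rat dorsolateral prostate. It read 99574, 19851 and 21926 on high and 78113, 82039 and 81437 on low corn oil arrays, so the marker was seen on every array. The 2 tested ventral prostate markers were bright too and varied between arrays. Scgb1d2 read 3636, 36941 and 43508 on high and 45781, 15797 and 18710 on low corn oil arrays. Scgb1d4 read 5583, 31960 and 37234 against 44078, 23637 and 27037. The 2 tested genes listed as seminal vesicle markers were bright as well. Semg1 read 80278, 30689 and 36240 on high and 58912, 62612 and 75216 on low corn oil arrays. Svs4 read 28622, 32772 and 39172 against 34072, 26256 and 42692. The share of ventral or seminal vesicle tissue on each array was not tested. Below, differences are log2(value + 156.1) under the high minus the low diet, fitted with limma and given with the standard error (SE), and values in a sentence follow replicates 1 to 3.

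Complex I was the complex with the most separation between the diets. Of its 23 tested genes 17 were higher under high corn oil and 6 lower, with a median log2 difference of 0.23, against a median of 0.05 over all 3162 genes tested. In 11 of the 23 all 3 high corn oil arrays lay above all 3 low corn oil arrays, and in 0 did they lie below. Such separation was found upward in 9.39% and downward in 6.33% of all genes tested. Among the 756 genes at least as bright as the dimmest of these complex I genes it was 9.39% upward and 8.07% downward. The only other member gene with separate diets was Atp5f1b, so all 12 separate genes were higher. The differences were small, with 50 of the 52 genes below 0.5 in size.

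None of these differences passed the test across the whole array. limma called 0 of the 85 member probe sets at an adjusted p under 0.05, and 0 (0.00%) of all 5244 tested on the array, of which 5.15% were higher and 4.81% lower at an unadjusted p under 0.05. The smallest adjusted p of a member was 0.462. Taken by gene, 5 of the 52 stood at an unadjusted p under 0.05, namely Ndufv2, Ndufa9, Ndufa3, Ndufb9 and Ndufc1, all higher, where 5.12% of all genes tested were higher and 4.46% lower at that level. Among the 756 bright genes 3.44% were higher at that level. The count of separate complex I genes depended on the scaling between arrays. It was 11 after quantile normalization (9.99% of all genes) but 4 after each array was scaled to the same median (8.54% of all genes), namely Ndufv2, Ndufa9, Ndufb9 and Ndufc1. If high corn oil replicate 3 was placed in the low group, as its description has it, 2 remained separate, Ndufa8 and Ndufb5 (4.87% of all genes), and the complex I median was 0.08. Without high corn oil replicate 1, which stood apart, 13 were separate and the median was 0.22, but such separation upward was then found in 27.5% of all genes. Also with 2 arrays against 3, it was 12 genes and 12.7% without high corn oil replicate 2, and 11 genes and 12.8% without replicate 3.

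**Figure D1:**
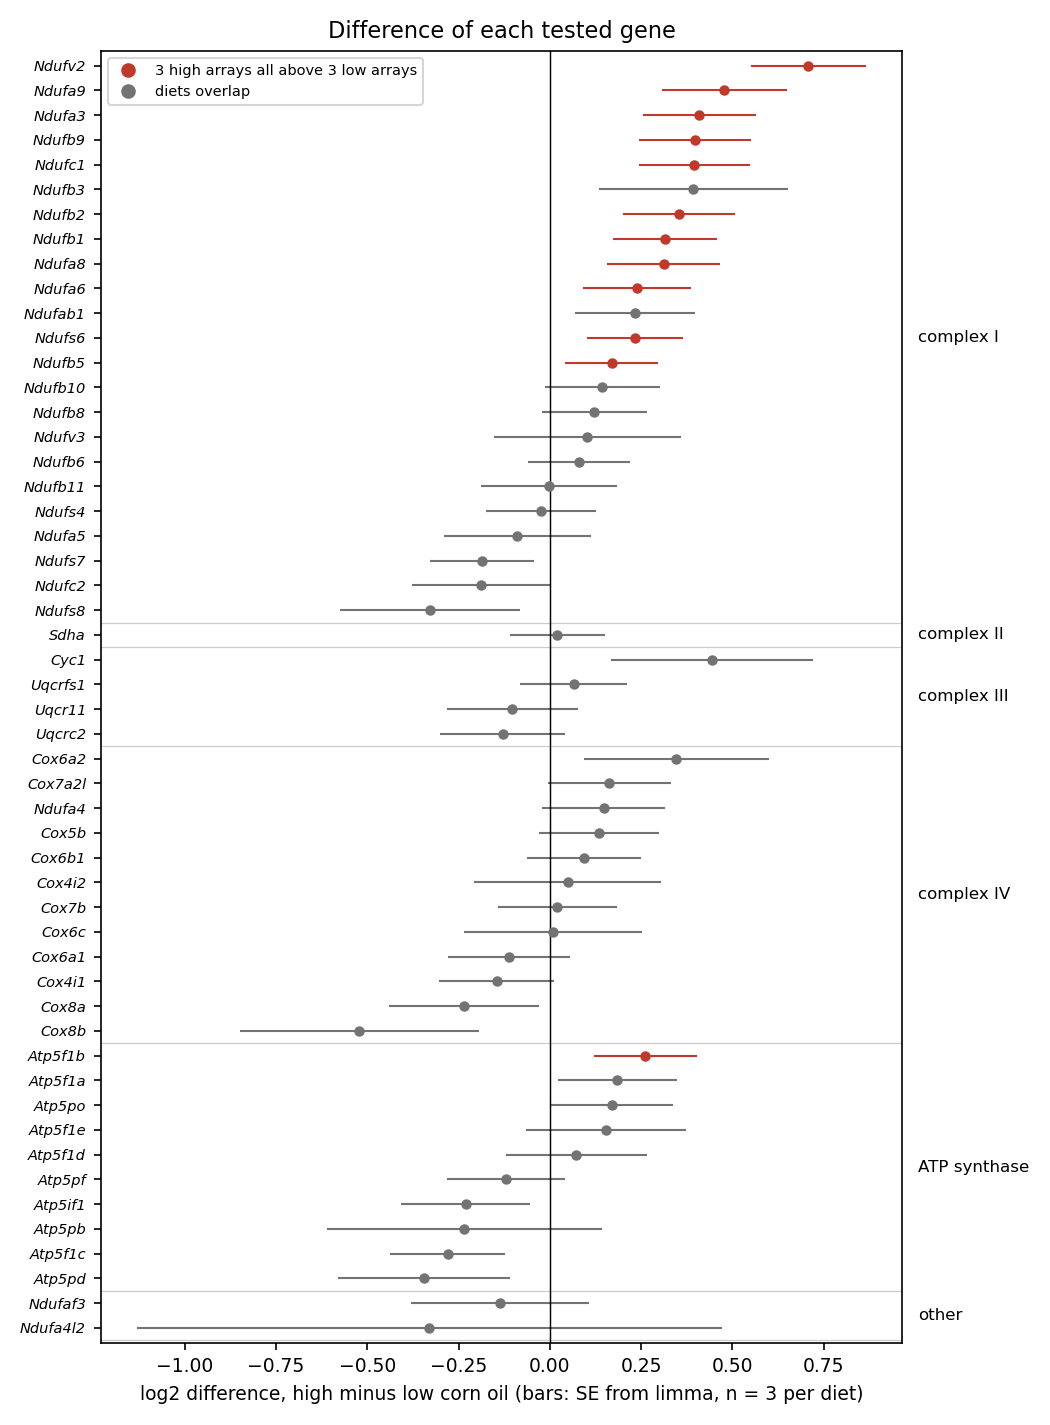
Log2 difference between high and low corn oil for each of the 52 tested genes, grouped by complex, with SE from limma (n = 3 per diet). Red points mark the 12 genes whose 3 high corn oil arrays all lay above the 3 low ones, 11 of them in complex I and 1, Atp5f1b, in ATP synthase.

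At complex I all 3 high corn oil arrays stood above the 3 low ones in the values as deposited, without further scaling between arrays. The level of a complex on an array was taken as the median over its genes of the log2 value minus the low corn oil mean of the gene. For complex I it was 0.25, 0.12 and 0.30 on the high and -0.01, 0.04 and -0.01 on the low corn oil arrays. Over all genes tested the level was 0.01, 0.13 and 0.03 on the high and -0.02, -0.01 and 0.04 on the low corn oil arrays, and over the 756 bright genes it stayed between -0.02 and 0.05 on every array. High corn oil replicate 2, the least raised at complex I, was thus the highest array over all genes. Its complex I level of 0.118 was below its level of 0.132 over all genes, and above its level of -0.004 over the bright genes. Among arrays of high spike-in signal only high corn oil replicate 1 met low corn oil replicates 1 and 2. There the complex I median was 0.20, with 18 of 23 genes higher. Among those of low signal high corn oil replicates 2 and 3 met low corn oil replicate 3 alone. There it was 0.29, with 17 of 23 higher. The medians were 0.11 and -0.11 over the tested members outside complex I, and 0.07 and -0.03 over the bright genes. Over all genes tested both were 0.03. These medians carry no test.

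**Figure D2:**
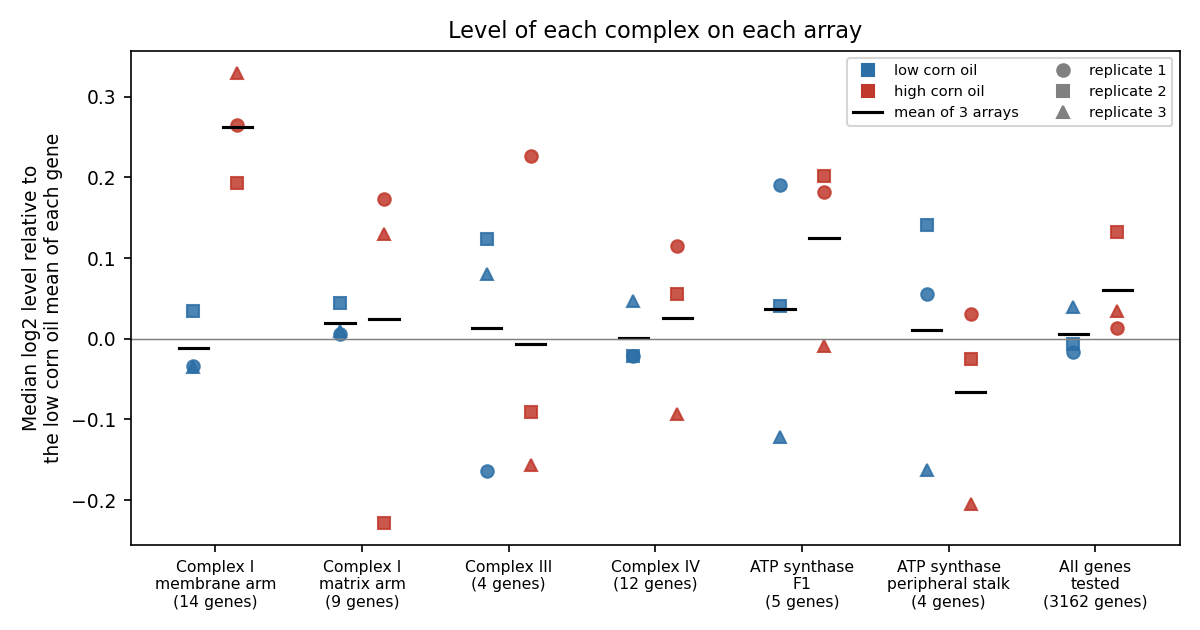
Level of each complex or part on each array, as the median over its genes of the log2 value minus the gene's low corn oil mean, with black bars at the mean of 3 arrays. The membrane arm of complex I stood at 0.26, 0.19 and 0.33 on the high and -0.03, 0.03 and -0.04 on the low corn oil arrays, while the points of both diets overlapped in the other parts.

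Markers of other cell types differed in the same comparison. Over all genes tested the diets were separate upward in 9.39% and downward in 6.33%. All 7 tested fibroblast markers were lower under high corn oil, 6 of them separate, with levels of -0.55, -0.71 and -0.94 on the high against 0.21, -0.26 and -0.18 on the low corn oil arrays and summed values of 57466 to 78434 under the high and 89997 to 125568 under the low diet. All 6 tested macrophage and myeloid markers were lower, 4 of them separate, with levels of -0.62, -0.73 and -0.58 against 0.25, -0.03 and -0.23 and summed values of 37485 to 60264 under the high and 56115 to 62082 under the low diet. Of 10 smooth muscle markers 9 were lower, at -0.79, 0.06 and -0.31 against 0.25, -0.18 and -0.12. Of 8 genes listed as epithelial markers of the dorsolateral lobe 3 were higher and 5 lower, at 0.17, -0.32 and -0.49 against 0.02, -0.04 and 0.05. Sbp, counted among those higher at 0.18 ± 1.26, read 1891, 45313 and 53056 against 39729, 6801 and 12179. Its values varied between arrays much as the ventral marker Scgb1d2 did, and not as Pbsn did. In 2 of the 8 the diets were separate, in opposite directions. The ceruloplasmin gene Cp, a copper-binding secreted protein, was lower, at 20269, 21735 and 19229 against 35964, 30551 and 35333, a difference of -0.73 ± 0.13 (limma adjusted p = 0.462). The epithelial adhesion gene Epcam was higher, at 15906, 18308 and 15816 against 12239, 12701 and 15141, a difference of 0.32 ± 0.14 (limma adjusted p = 0.501). The secretory genes Pbsn and Msmb stood at -1.19 ± 0.57 and -0.65 ± 0.28 with overlapping diets. The 2 tested markers of basal epithelium were higher, Krt5 separate at 0.27 ± 0.13 and Krt14 overlapping at 0.14 ± 0.19. limma called 0 in each of these lists. The part of these markers in the complex I values was not tested.

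Complex I is built from a matrix arm, which takes electrons from NADH (N module) and hands them to ubiquinone (Q module), and a membrane arm that pumps protons. The genes tested for the membrane arm, all nuclear and all of accessory subunits, were the most uniform. Of 14 tested, 12 were higher, 7 were separate, and the median difference was 0.27, ranging from 0.18 to 0.32 when each array was left out in turn. It was 0.24 with every array scaled to the same median and 0.14 with high corn oil replicate 3 placed in the low group, where 9 of 14 were higher. In the matrix arm 5 of 9 were higher and 4 separate, with a median of 0.10 that turned to -0.12 without high corn oil replicate 1 and was 0.27 without high corn oil replicate 2. On the high corn oil arrays the matrix arm stood at 0.17, -0.23 and 0.13, so high corn oil replicate 2 was below the low corn oil arrays there.

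In the N module the largest difference of all members belonged to Ndufv2, a subunit with an iron-sulfur cluster beside the NADH site. It read 15360, 17293 and 17222 on high and 11548, 8441 and 10573 on low corn oil arrays, an average of 16625 ± 1096 (SD, n = 3) against 10187 ± 1589. The lowest high array exceeded the highest low array by a wide margin, and the difference was 0.71 ± 0.16 (limma adjusted p = 0.462). Ndufs6, a zinc-binding subunit, read 13746, 12478 and 14423 against 12007, 11850 and 10642, also without overlap but with a smaller difference of 0.23 ± 0.13 (adjusted p = 0.532). The other genes of the module did not separate the diets. The accessory subunit gene Ndufs4 read 7217, 5427 and 6318 against 6409, 6251 and 6494, with overlapping diets and a difference of -0.02 ± 0.15. Ndufv3, another accessory subunit, read 28926, 14368 and 20965 against 19351, 21811 and 16648, a difference of 0.10 ± 0.26, with high corn oil replicate 1 highest and replicate 2 lowest of all 6. Ndufs1, which carries several iron-sulfur clusters, was too dim to be tested, at 515, 436 and 290 against 225, 216 and 334.

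The Q module went both ways. Ndufa9, which helps join the matrix arm to the membrane arm, read 5296, 6798 and 6274 on high and 3680, 4685 and 4698 on low corn oil arrays, a separation of 0.48 ± 0.17 (limma adjusted p = 0.48). Ndufa6, an accessory subunit, was separate by a narrow gap, at 8412, 8542 and 9814 against 7765, 8265 and 6636 and 0.24 ± 0.15 (adjusted p = 0.55). The core subunits with iron-sulfur clusters were on the other side. Ndufs7 read 5281, 5163 and 6306 against 6320, 6548 and 6178, a difference of -0.19 ± 0.14, with only high corn oil replicate 3 inside the low range. Ndufs8 read 5634, 4776 and 3383 against 4641, 5348 and 7414, a difference of -0.33 ± 0.25 with wide overlap. Ndufa5, an accessory subunit, read 10800, 7030 and 10756 against 8983, 10955 and 10020, or -0.09 ± 0.20. Whether the core genes differ from Ndufa9 in their response was not tested.

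**Figure D3:**
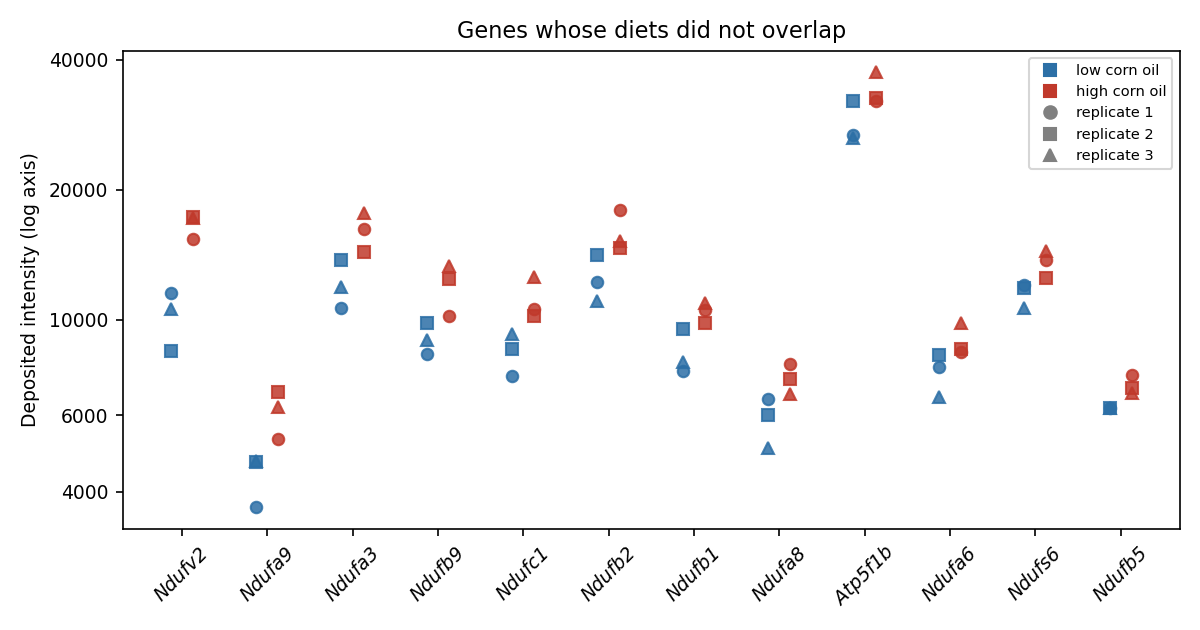
Deposited intensity (log axis) on each of the 6 arrays for the 12 genes whose diets did not overlap, ordered by log2 difference. The gap is widest in Ndufv2, where the lowest high corn oil array read 15360 and the highest low corn oil array 11548, and narrow in Ndufa6 and Atp5f1b.

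Accessory subunits of the membrane arm made up 7 of the 12 separate genes, but this arm also held most of the tested complex I genes. In it 7 of 14 tested genes were separate, against 4 of 9 in the matrix arm. With every array scaled to the same median, Ndufb9 and Ndufc1 of this arm and Ndufv2 and Ndufa9 of the matrix arm remained separate. A difference between the arms was not tested. Ndufa3 read 16244, 14331 and 17678 on high and 10627, 13739 and 11913 on low corn oil arrays, a difference of 0.41 ± 0.15 (limma adjusted p = 0.48). Ndufb9 read 10221, 12419 and 13333 against 8315, 9807 and 8988, a difference of 0.40 ± 0.15 (adjusted p = 0.48). For Ndufc1 the values were 10567, 10210 and 12561 against 7412, 8545 and 9261, a difference of 0.40 ± 0.15 (adjusted p = 0.48). These 3 genes had nearly the same difference, and each had its highest value on high corn oil replicate 3. Both probe sets of Ndufc1 were separate.

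Ndufb2 was highest on high corn oil replicate 1 instead, at 17910, 14622 and 15235 against 12194, 14120 and 11021, a difference of 0.35 ± 0.15. Ndufb1 read 10498, 9826 and 10898 against 7598, 9498 and 7998, or 0.32 ± 0.14. Ndufa8, a subunit facing the intermembrane space, read 7907, 7269 and 6734 against 6559, 6003 and 5056, or 0.31 ± 0.15. The diets were separate in all of them, and their limma adjusted p-values were 0.501, 0.501 and 0.51. Ndufb5 was separate with the smallest difference, 0.17 ± 0.13: its low corn oil values of 6252, 6245 and 6254 hardly varied, and it read 7448, 6954 and 6762 on the high diet.

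The other membrane arm genes overlapped between the diets. Ndufb3 read 10020, 12307 and 19508 against 12232, 9546 and 9013, a difference of 0.39 ± 0.26 in which high corn oil replicate 3 stood far above the other 5 arrays. Ndufab1, the mitochondrial acyl carrier protein, which is at once a complex I subunit and a carrier in mitochondrial fatty acid synthesis, read 15882, 13559 and 16793 against 10883, 14144 and 14366. Its difference was 0.23 ± 0.16, and its dimmer tested probe set was separate at 0.35 ± 0.15. Ndufb8 read 16363, 17942 and 19844 against 18424, 16300 and 15009, a difference of 0.12 ± 0.14 with overlapping ranges. Ndufb10 and Ndufb6 differed by 0.14 and 0.08. In 2 genes of this arm the log2 difference was below 0. Ndufb11 read 8645, 6105 and 6137 against 6656, 7884 and 6205, a difference of -0.002 ± 0.19, and Ndufc2 stood at -0.19 ± 0.19.

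The starts of the member genes were compared for short letter motifs, since many respiratory chain genes are known to be controlled by the factors NRF1, GABP and YY1. The RefSeq promoter table (GRCr8, 250 bases before to 50 after each start) held 46 of the 55 member genes. AAGATGGC, the core of the YY1 motif, was found on either strand in 11 of the 46 (23.9%), against 4.63% of genes tested on the array and 3.44% of all 27457 promoters. In complex I it was found in 7 of 22. The ETS motif core of GABP, CCGGAAG, which can overlap the YY1 core by its last letters, was in 19.6% of members, 14.9% of genes tested on the array and 9.22% of all promoters. The NRF1 core GCATGCGC was in 4.35% of members, 3.94% of tested genes and 2.66% of all promoters. The SP1 box GGGCGG was in 43.5% of members, between the 62.4% of tested genes and the 34.9% of all promoters. The TATA box TATAAA was in 4.35% of members, 9.67% of tested genes and 14.3% of all promoters. These are matches of letters and were not tested.

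The 7 complex I windows with the YY1 core are shown because they place it alike. In each it lies on the gene's own strand and begins 5 to 24 bases after the start. The core contains ATG, the letters of a start codon, and whether these matches are translation starts was not tested. Windows of 30 bases are given 5′ to 3′ along the gene in GRCr8, with the core in capitals.
Ndufa3, chr1:74515524-74515553, minus strand: tgtccaagaccAAGATGGCtgctagtaagt
Ndufa6, chr7:115750284-115750313, minus strand: gcttccttagcAAGATGGCggccgcggcca
Ndufa9, chr4:161374142-161374171, minus strand: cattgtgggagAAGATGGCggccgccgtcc
Ndufs6, chr1:31797412-31797441, plus strand: gggtcgtcggcAAGATGGCggcggcgctga
Ndufb8, chr1:253362897-253362926, minus strand: cggagaaggtgAAGATGGCggcgtcccggg
Ndufs4, chr2:47794892-47794921, minus strand: ttgcccacaggAAGATGGCggcggtctcaa
Ndufs7, chr7:10110476-10110505, minus strand: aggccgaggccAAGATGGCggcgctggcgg

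The first 4 belong to genes with separate diets and the last 3 to genes whose diets overlapped, so the letters occurred with either pattern. Among tested complex I genes with a promoter entry, those with the core had a median difference of 0.23, with 4 of 7 separate. Those without it had a median of 0.16, with 5 of 14 separate. Over all tested members the medians were 0.12 with and 0.09 without the core. The members that hold it had it after the start in 8 of 11 (72.7%), against 43.0% of all promoters that hold it. The NRF1 core was found in Ndufa6 and Atp5po alone.

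Complex II, which oxidises succinate for both the citrate cycle and the chain, was measured by its flavoprotein subunit alone. Sdha read 7715, 6919 and 6978 on high and 6775, 7313 and 7199 on low corn oil arrays. The diets overlapped fully and the difference was 0.02 ± 0.13 (limma adjusted p = 0.957).

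Complex III takes electrons from ubiquinol to cytochrome c. Of its 4 tested genes 2 were higher and 2 lower, with a median of -0.02 and array levels of 0.23, -0.09 and -0.16 under the high and -0.16, 0.12 and 0.08 under the low diet. Cyc1, the cytochrome c1 that meets cytochrome c, read 11479, 9816 and 11947 against 5124, 9416 and 10905. Its difference of 0.44 ± 0.28 (limma adjusted p = 0.551) was 0.12 without low corn oil replicate 1, the lowest array. Uqcrfs1, the Rieske iron-sulfur protein, read 16434, 13590 and 13863 against 12421, 14303 and 15191, a difference of 0.07 ± 0.15. Uqcrc2, a core protein of the matrix side, read 16300, 12364 and 11784 against 13018, 15983 and 14990, a difference of -0.13 ± 0.17. The small subunit gene Uqcr11 read 21264, 16478 and 14039 against 18330, 19855 and 16764, a difference of -0.10 ± 0.18. In the last 3 genes high corn oil replicate 1 had the highest value of all 6 arrays, and the diets overlapped. Split by spike-in signal, the median of complex III was 0.24 with 4 of 4 higher among arrays of high signal. There high corn oil replicate 1 alone stood for its diet. Among those of low signal it was -0.14 with 0 of 4 higher, with low corn oil replicate 3 alone for its diet.

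Complex IV, cytochrome c oxidase, has nuclear subunits of which several exist as a general and a muscle-type isoform. Of its 12 tested genes 8 were higher and 4 lower, with a median difference of 0.03 and 0 separate genes. The array levels were 0.11, 0.06 and -0.09 under the high and -0.02, -0.02 and 0.05 under the low diet. Its general isoforms were bright on every array. Cox4i1 read 46914, 33831 and 38953 against 41080, 43050 and 47379, a difference of -0.15 ± 0.16. Cox6a1 read 51346, 34704 and 41098 against 46649, 43542 and 45460, or -0.11 ± 0.17. Cox8a read 65790, 37896 and 48755 against 57923, 56134 and 61153, or -0.24 ± 0.21. In these 3 genes high corn oil replicate 1 was the highest or next to highest array and replicate 2 was the lowest of all 6. Cox6b1, a subunit on the outer face, read 21864, 22935 and 28888 against 24108, 23906 and 20650, or 0.09 ± 0.16. Ndufa4, a complex IV subunit despite its name, differed by 0.15 ± 0.17, and Cox7a2l, which helps complexes III and IV to associate, by 0.16 ± 0.17. Cox5b, Cox7b and Cox6c stood at 0.13, 0.02 and 0.01.

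The isoforms of restricted expression overlapped between the diets. Cox6a2, a muscle-type isoform, read 2033, 3696 and 3387 on high and 1998, 2205 and 2699 on low corn oil arrays, a difference of 0.35 ± 0.25 (limma adjusted p = 0.603), with its other 2 probe sets at or below 0 on 3 and 6 arrays. Cox8b, also of muscle type, read 314, 649 and 318 against 540, 620 and 829, the largest difference downward among the 52 genes at -0.52 ± 0.33 (adjusted p = 0.551). Cox4i2, an isoform linked to low oxygen, read 2932, 3534 and 2027 against 2936, 3157 and 2038, or 0.05 ± 0.26. In Cox8b low corn oil replicate 3 was the highest array, and in Cox4i2 both diets covered nearly the same range. Of the skeletal muscle markers 7 of 7 tested had a log2 difference below 0 and 0 were separate. Their level was -0.84, 0.92 and -0.48 on the high and -0.78, 0.35 and -0.05 on the low corn oil arrays, and their summed values were 17831 to 40824 under the high and 28533 to 35619 under the low diet. Their part in the values of Cox6a2 and Cox8b was not tested. Cox5a, seen by 1 dim probe set, read 386, 130 and 76.7 against 455, 518 and 404 and was not tested. The assembly factor gene Ndufaf3 read 3799, 2433 and 4642 against 3414, 4163 and 4079, or -0.14 ± 0.24 with overlap. Ndufa4l2, the relative of Ndufa4, was at or below 0 on 1 array in the only probe set tested and stood at -0.33 ± 0.80.

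ATP synthase joins a catalytic F1 head to a proton channel in the membrane through a central shaft and a peripheral stalk. Of its 10 tested genes 5 were higher and 5 lower, with a median of -0.02 and array levels of 0.07, 0.12 and -0.09 under the high and 0.14, 0.07 and -0.14 under the low diet. In the F1 head 4 of 5 genes were higher and in the stalk 1 of 4. No probe set of 1 gene stood for the ring in the membrane (Atp5mc1, Atp5mc2 and Atp5mc3). Atp5f1b, the catalytic beta subunit, was the separate gene, at 32106, 32553 and 37334 against 26796, 32047 and 26343. The lowest high and the highest low array nearly met, and the difference was 0.26 ± 0.14 (limma adjusted p = 0.525).

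The partner alpha subunit Atp5f1a read 18268, 20018 and 15008 against 17712, 14257 and 14745, a difference of 0.18 ± 0.16 with overlap. The gamma subunit Atp5f1c, the rotating shaft, read 7372, 9104 and 7047 against 10546, 9307 and 8709, a difference of -0.28 ± 0.16 in the other direction. The alpha subunit was highest on high corn oil replicate 2, and the gamma subunit had 3 high corn oil values below 2 of the low ones. The stalk gene Atp5pd read 16216, 10492 and 9663 against 16016, 17471 and 12132, or -0.34 ± 0.24. Atp5po, another stalk gene, read 14110, 16393 and 19159 against 16582, 14482 and 12913, or 0.17 ± 0.17. Atp5if1, the inhibitor that blocks ATP hydrolysis by the enzyme, read 10227, 8624 and 6940 against 11018, 9740 and 9299, or -0.23 ± 0.18. None of these separated the diets. The F1 genes Atp5f1d and Atp5f1e differed by 0.07 and 0.15, and the stalk genes Atp5pf and Atp5pb by -0.12 and -0.23.

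**Figure D4:**
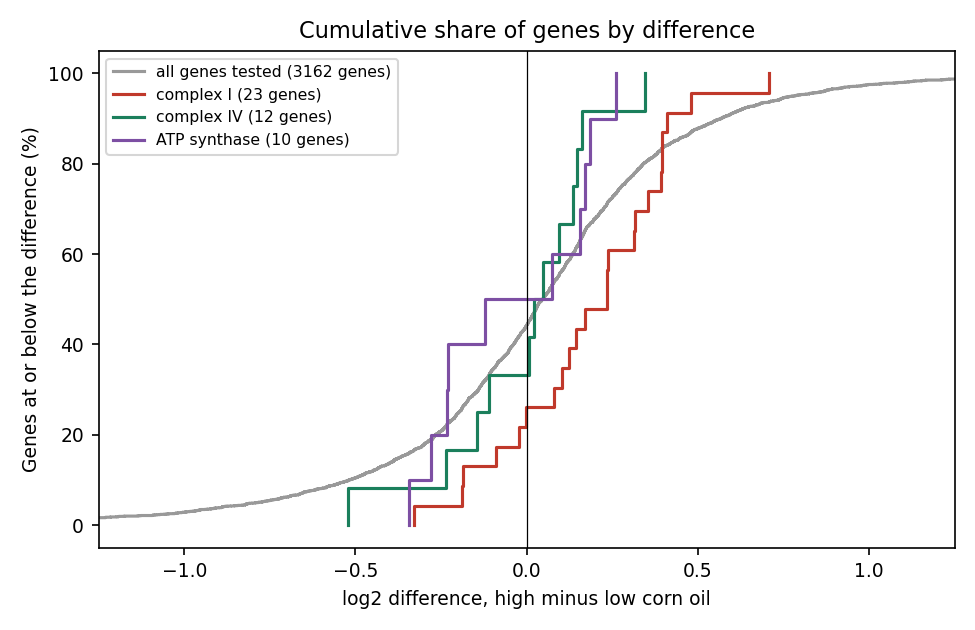
Cumulative share of genes by log2 difference between high and low corn oil, for complex I, complex IV, ATP synthase and all 3162 genes tested, on an axis that leaves out the largest differences of all genes. The complex I curve lies to the right, with a median of 0.23, while the medians of complex IV and ATP synthase are 0.03 and -0.02.

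Several genes were measured by more than one probe set. Of 25 member genes with 2 or more tested probe sets, 11 had differences of one sign and 14 of both signs. Cox8a had 4, running from -0.24 to 0.32. Ndufv3 had the widest span: its brighter probe set differed by 0.10 ± 0.26 and its dimmer one by -1.26 ± 0.65, with 1163, 81.6 and 99.9 on the high and 1013, 795 and 840 on the low corn oil arrays. There high corn oil replicates 2 and 3 were near the bottom of the scale and replicate 1 was above the low arrays. Without high corn oil replicate 1 this dim probe set was the only member called by limma, at -2.07 ± 0.29 (adjusted p = 0.0257), where 4.08% of all probe sets were called. With quantile normalization besides (4.16% of all probe sets called) the Ndufv3 value was -2.05 ± 0.27 (adjusted p = 0.0236), and a Cox8a probe set was called too, at 0.59 ± 0.10 (adjusted p = 0.0381), and it is one of 3 that are dimmer than the probe set used for that gene.

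Among the separate genes, Ndufa6 and Ndufb5 had a second, dimmer probe set of opposite sign, at -0.31 ± 0.37 and -0.09 ± 0.23. Ndufb8 had 3, at 0.12 ± 0.14, -0.33 ± 0.23 and 0.50 ± 0.28 from brightest to dimmest. For Ndufs4 the dimmer one stood at 0.36 ± 0.24 and for Ndufb11 at 0.79 ± 0.54. Opposite signs were also seen in Uqcr11 (0.25 ± 0.16 for the dimmer), Uqcrfs1 (-0.20 to 0.12), Cox6a1 (-0.11 to 0.13), Cox6b1 (-0.18 ± 0.22 for the dimmer), Atp5po (-0.20 ± 0.15 for the dimmer), Atp5if1 (-0.41 to 0.02) and Ndufaf3 (-0.14 to 0.07). Counted over probe sets and not genes, 23 of the 34 tested for complex I were higher, and 15 of all 85 members were separate, all upward, where 8.83% of all probe sets were separate upward and 6.71% downward. Of the 55 member genes 25 have an annotated pseudogene in the RefSeq table, 5 of the separate genes among them (Ndufv2, Ndufs6, Ndufa3, Ndufb1 and Atp5f1b), and whether transcripts of such copies add to their signal was not tested.

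**Figure D5:**
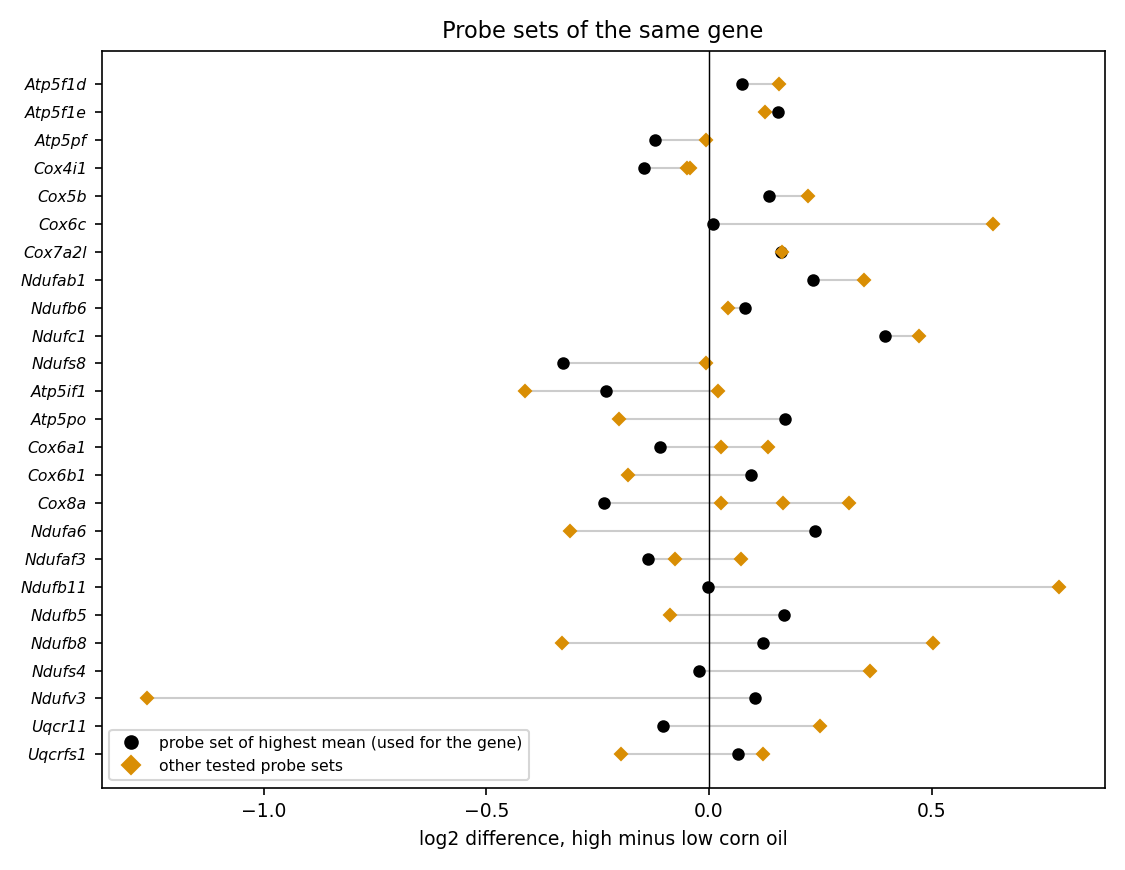
Log2 differences of all tested probe sets of the 25 genes that had 2 or more, with black circles for the probe set used for the gene and orange diamonds for the others. In the lower 14 genes the points lie on both sides of 0, and the dimmer Ndufv3 probe set lies farthest out at -1.26.

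Other mitochondrial genes did not share one direction. Of 7 tested markers of mitochondrial mass, 4 were higher, 3 of them separate, with a median of 0.03. Over all genes tested 9.39% were separate upward. Cs, citrate synthase, read 3770, 3208 and 3549 on high and 2318, 2770 and 2877 on low corn oil arrays, a separate difference of 0.39 ± 0.16. The fusion gene Mfn2 read 3204, 3185 and 2392 against 2279, 2155 and 2243, also separate at 0.36 ± 0.17, and the chaperonin gene Hspd1 differed by 0.48 ± 0.18. The import receptor Tomm20, in contrast, stood at -0.14 ± 0.15 with overlap, and Phb2 at -0.06 ± 0.14. The dim gene Opa1 had the largest difference of this list, -1.07 ± 0.54 with overlap, at 712, 110 and 64.5 against 643, 607 and 618. Of 9 carriers and outer membrane pores 6 were higher, with a median of 0.10. Among them the ATP/ADP carrier Slc25a5 was separate by 0.10 ± 0.12, at 27445, 23782 and 23890 against 22818, 23685 and 23568, and the carrier Slc25a4 stood at -0.23 ± 0.17. Of 4 assembly genes 2 were higher (median 0.01), of 4 genes that feed electrons in beside complexes I and II 3 were higher (median 0.20), and of 5 regulators of mitochondrial gene expression 2 were higher (median -0.16). limma called 0 in each of these lists.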

How the data were processed

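Total RNA of 6 dorsolateral prostates, 6 ug each, was labelled and hybridized per the labels. The deposited intensity values, 1 per probe set and array on a linear scale, had been scaled by the authors, as the values show: with the highest and lowest 2% removed, every array averaged 2503 or 2504. MAS5 is named in the submitters' processing notes, with no version or settings, and no source used here explains the values below 0. No detection calls were used, and depth does not apply to arrays: their number, 3 per diet, limits precision.

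Symbols came from the platform annotation, updated by gene identifier to RefSeq (GRCr8): of 8799 probe sets 7006 had 1 gene (6985 updated), 308 several, 1426 none and 59 were controls. Values below 0 were set to 0 and transformed as log2(value + 156.1), the pseudocount being the median of all values (624.6) divided by 4, which understates the change of dim genes. Probe sets with a mean of at least 343, the 40th percentile, were tested (5244, or 3162 genes, each by its probe set of highest mean). limma 3.58.1 in R 4.3.3 compared the diets over all 6 arrays with an intensity trend, two-sided. P-values were adjusted by Benjamini-Hochberg across every tested probe set and called at 0.05. The steps were tested on simulated data whose planted differences were larger than that of any tested member gene. That test does not show whether differences of the size reported here would be called. Members, gene lists and settings were chosen with earlier results of these data known.

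Named genes were the 3 of smallest p in each complex, genes with separate diets, genes whose probe sets differed in sign, tissue isoforms and core subunits. Ndufb3, Ndufab1 and Ndufa5 were added after their values were seen. Medians over genes carry no test. Equal replicate numbers were not taken as pairs: deviations of same-numbered arrays from their diet means correlated at -0.05, -0.20 and 0.18. The counts of separate complex I genes under other settings, and those among bright genes, were added after the data were seen. Sequences are RefSeq's.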

Additional observations from a re-analysis of the deposited data

How the results depend on the processing

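limma called 0 member probe sets in every setting but those without high corn oil replicate 1, which left 1 member and 214 probe sets in all, so that leaving out single arrays gave 0 to 1 and 0 to 214. Adding quantile normalization gave 2 and 218, and medians of -0.055 for complex II and -0.061 for complex IV. Without a filter 9 probe sets and 0 members were called. With the replicate number as a block, limma called 0 members and 0 probe sets (554 at an unadjusted p under 0.05), and no call changed under this pairing. The complex I median kept its sign in all settings (0.08 to 0.29). It was 0.079, and that of complex IV -0.075, with high corn oil replicate 3 placed in the low group, where 2 complex I genes were separate. After median scaling 4 were. Precision was limited by 3 arrays per diet and by dim probe sets near or below 0, and no member passed adjustment with all 6 arrays.

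Some single genes changed sign, and the cause was not tested. With array weights these were Cox4i2 (-0.19), Ndufv3 (-0.065) and Sdha (-0.028). With high corn oil replicate 3 placed in the low group they were Atp5if1 (0.041), Atp5po (-0.038), Cox6b1 (-0.11), Ndufb11 (0.12), Ndufb8 (-0.013), Ndufs8 (0.051), Uqcr11 (0.13) and Uqcrc2 (0.036). After median scaling it was Sdha (-0.016). Under quantile normalization without high corn oil replicate 1 they were Cox4i2 (-0.056), Ndufv3 (-0.22), Sdha (-0.055) and Uqcrfs1 (-0.052). With spike-in signal as a block they were Ndufb11 (0.12), Ndufs4 (0.020) and Uqcr11 (0.0082). Averaging the probe sets of a gene gave Atp5po -0.016, Cox6a1 0.016, Cox6b1 -0.044, Cox8a 0.068, Ndufa6 -0.037, Ndufb11 0.39, Ndufs4 0.17, Ndufv3 -0.58, Uqcr11 0.074 and Uqcrfs1 -0.0036. Leaving out single arrays gave -0.14 to 0.36 for Ndufv3, -0.029 to 0.048 for Sdha, -0.020 to 0.13 for Uqcrfs1, -0.13 to 0.26 for Cox4i2, -0.26 to 0.023 for Cox6a1, -0.028 to 0.17 for Cox6b1, -0.33 to 0.11 for Ndufaf3, -0.16 to 0.094 for Ndufb11, -0.12 to 0.079 for Ndufs4 and -0.26 to 0.035 for Uqcr11.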
